A study of Mus musculus with 22 samples.

Results

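The 5mC and 5hmC levels of 7 Eph receptor genes, Epha3, Epha4, Epha5, Epha6, Epha7, Ephb1 and Ephb2, were examined in cortex, olfactory bulb and cerebellum of female C57BL/6 mice at 8 weeks of age. Each gene was taken at its GENCODE vM21 position in mm10, with the 100 kb bins of 5mC and the 1 Mb bins of 5hmC that overlap it and the 500 kb on either side. They are 7 of 21755 protein-coding genes. Eph receptors are receptor tyrosine kinases whose ligands, the ephrins, sit on the surface of neighbouring cells, so that signals run in both cells at a contact. EphA receptors mainly bind the lipid-anchored ephrin-A ligands and EphB receptors the transmembrane ephrin-B ligands, while Epha4 binds both kinds. In the brain the family is known for guiding growing axons, for topographic maps and for the shaping of synapses. 5mC is the methylated form of cytosine, and 5hmC is its oxidized form, made by the TET enzymes and abundant in neurons.

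The libraries came from whole olfactory bulb, whole cerebellum and cerebral cortex without the hippocampus, with no treatment and no sorting of cell types, so a change in the mix of cells and a change within cells cannot be told apart. For 5mC there were 3 cortex, 2 olfactory bulb and 2 cerebellum libraries of oxBS-seq, in which 5hmC is oxidized chemically before bisulfite conversion and 5mC alone remains to be read as a cytosine. For 5hmC there were 3 libraries per tissue of TAB-seq, in which 5hmC is shielded by a sugar and 5mC is oxidized away before conversion. The authors state that the replicates of a tissue came from independent mice, although their methods also call them technical replicates. The 5mC level of a gene is the unweighted mean of the 100 kb bins that overlap it. All levels are fractions from 0 to 1, errors are SDs between libraries, and the depth behind a level is unknown because no read counts were part of the values used.

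The 7 genes were long, from 147.9 kb for Epha4 to 952.0 kb for Epha6, and together they overlapped 33 bins of 100 kb and 9 bins of 1 Mb. Epha3 (chr16:63543534-63864175), Epha4 (chr1:77367185-77515088), Epha5 (chr5:84054761-84417382), Epha6 (chr16:59653483-60605531), Ephb1 (chr9:101922128-102354693) and Ephb2 (chr4:136647539-136835988) lay on the minus strand and Epha7 (chr4:28813131-28967499) on the plus strand. CpG sites were sparse in the bins of Epha5 (5.11 per kb), Epha6 (5.75) and Epha3 (5.95) and dense in those of Ephb1 (10.3) and Ephb2 (15.6), with 9.48 in Epha4 and 8.04 in Epha7, against a median of 7.53 per kb over all 100 kb bins. The bins of Epha3, Epha4, Epha5 and Epha7 held no other protein-coding gene, those of Epha6 also held parts of Crybg3 and Arl6, those of Ephb1 held 9630041A04Rik, and those of Ephb2 held Kdm1a, Tex46, Lactbl1, C1qb, C1qc and C1qa.

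All 7 start sites lay in sequence with more CpG sites than the median promoter, which is shown here because a 100 kb bin averages such a short region with the body of the gene. The 300 bases around the start (RefSeq, GRCm38.p6) held 30 CpG sites in Epha5, 28 in Epha7, 24 in Ephb2, 18 in Epha3, 17 in Epha4, 15 in Epha6 and 14 in Ephb1, against a median of 7 over 32851 promoters of the same length. Such counts are common, since 11.7% of these promoters held at least as many as Epha5 and 36.3% at least as many as Ephb1. The 200 bases just upstream of the start are printed for Epha5 and Epha7, at the top of that order, and for Ephb1, at its end, 5′ to 3′ along the gene with each CpG in capitals. They are chr5:84417383-84417582 on the minus strand with 16 CpG sites, chr4:28812931-28813130 on the plus strand with 19, and chr9:102354694-102354893 on the minus strand with 6.
Epha5: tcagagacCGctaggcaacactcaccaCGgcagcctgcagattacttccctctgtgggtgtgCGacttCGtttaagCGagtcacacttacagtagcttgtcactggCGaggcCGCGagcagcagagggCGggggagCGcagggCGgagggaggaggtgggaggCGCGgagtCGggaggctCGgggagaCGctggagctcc
Epha7: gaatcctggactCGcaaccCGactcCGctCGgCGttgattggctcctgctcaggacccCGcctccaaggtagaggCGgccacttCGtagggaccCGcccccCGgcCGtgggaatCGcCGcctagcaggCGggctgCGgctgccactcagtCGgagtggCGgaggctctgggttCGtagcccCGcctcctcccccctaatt
Ephb1: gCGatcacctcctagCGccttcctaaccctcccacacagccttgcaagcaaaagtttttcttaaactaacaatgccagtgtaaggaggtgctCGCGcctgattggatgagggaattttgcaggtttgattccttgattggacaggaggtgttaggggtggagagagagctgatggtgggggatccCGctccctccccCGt

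Levels of 5mC differed between whole libraries before any gene was considered. The mean over 100 kb bins was 0.684, 0.687 and 0.660 in the cortex libraries, 0.709 and 0.705 in olfactory bulb and 0.739 and 0.723 in cerebellum, so cortex replicate 3 stood below the other two. Over all genes, the median change on the log2(level/(1 − level)) scale, called the log2 ratio here, was 0.20 from cortex to olfactory bulb, 0.29 from cortex to cerebellum and 0.08 from olfactory bulb to cerebellum. Changes of the Eph receptor genes are therefore also given after each library was centred on its median. A difference was called where limma's Benjamini-Hochberg adjusted p, over all genes or bins tested, was under 0.05. As a check of the tissue labels, 4 of 5 cerebellum marker genes (Neurod1, Cbln1, Zic1 and Gabra6, not Pcp2) lay lower relative to their flanks in cerebellum than in both other tissues. Meis2, a transcription factor of olfactory bulb interneurons, lay lowest in olfactory bulb at 0.296. The cortex markers Tbr1, Slc17a7, Neurod6 and Rasgrf2 and the other olfactory bulb markers Th, Eomes, Sp8 and Doc2g gave no such pattern in both comparisons.

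Epha5 and Epha6, receptors of ephrin-A ligands with roles in axon guidance, had far more 5mC in cerebellum than in the other tissues. Epha5 had 0.648, 0.647 and 0.610 in the 3 cortex libraries, 0.648 and 0.643 in olfactory bulb, and 0.806 and 0.794 in cerebellum. Both cerebellum libraries lay above every other library, while cortex and olfactory bulb overlapped. On the log2 ratio scale Epha5 was higher in cerebellum than in cortex by 1.20 ± 0.11 (SE, limma adjusted p = 3.1e-13) and than in olfactory bulb by 1.13 ± 0.13 (limma adjusted p = 5.4e-11). The difference between olfactory bulb and cortex was 0.07 ± 0.11 (limma adjusted p = 0.648).

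Epha6 had 0.683, 0.682 and 0.668 in cortex, 0.682 and 0.677 in olfactory bulb, and 0.811 and 0.797 in cerebellum. The order was that of Epha5, with cortex and olfactory bulb overlapping and cerebellum apart, and its level was higher in cerebellum by 0.96 ± 0.11 against cortex (limma adjusted p = 2.4e-10) and by 0.95 ± 0.12 against olfactory bulb (limma adjusted p = 7.1e-09). Among 2488 protein-coding genes of at least 100 kb, 96.7% had less 5mC than Epha5 and 97.7% less than Epha6 in cerebellum, against 39.6% and 68.6% in cortex and 28.9% and 46.5% in olfactory bulb.

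Epha4, which is known for guiding corticospinal and spinal axons, formed a series over the 3 tissues. Its level was 0.551, 0.552 and 0.540 in cortex, 0.635 and 0.634 in olfactory bulb, and 0.733 and 0.717 in cerebellum, with no overlap between any of the tissues. Olfactory bulb lay above cortex by 0.52 ± 0.11 on the log2 ratio scale (limma adjusted p = 0.00060), and cerebellum lay above olfactory bulb by 0.60 ± 0.12 (limma adjusted p = 0.00012) and above cortex by 1.13 ± 0.11 (limma adjusted p = 1.8e-12). In cortex only 5.67% of the long genes had less 5mC than Epha4, whereas in cerebellum 51.4% did.

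Epha7, a receptor that repels axons bearing its ligands, was lower in cortex than in the other tissues. It had 0.617, 0.609 and 0.603 there, 0.676 and 0.697 in olfactory bulb, and 0.716 and 0.699 in cerebellum. Cortex did not overlap either of the other tissues and was lower than olfactory bulb by 0.49 ± 0.11 (limma adjusted p = 0.0013) and than cerebellum by 0.63 ± 0.11 (limma adjusted p = 4.5e-06). Olfactory bulb and cerebellum differed by 0.14 ± 0.12 (limma adjusted p = 0.419). After centring, the change from cortex to olfactory bulb was 0.28 and no longer called (limma adjusted p = 0.059). That from cortex to cerebellum was 0.29 (limma adjusted p = 0.014).

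Epha3 was the EphA gene with the smallest change from cortex to cerebellum. Its level was 0.676, 0.670 and 0.651 in cortex, 0.647 and 0.643 in olfactory bulb, and 0.732 and 0.717 in cerebellum. Cerebellum lay above the other tissues, by 0.40 ± 0.11 against cortex (limma adjusted p = 0.0022) and by 0.53 ± 0.12 against olfactory bulb (limma adjusted p = 0.00077), while olfactory bulb and cortex differed by -0.13 ± 0.11 (limma adjusted p = 0.350). Without cerebellum replicate 1 the change against cortex was 0.35 with a limma adjusted p of 0.064. After centring, the change against cortex was 0.06 (limma adjusted p = 0.504), and that between olfactory bulb and cortex was -0.34 (limma adjusted p = 0.010).

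**Figure D1:**
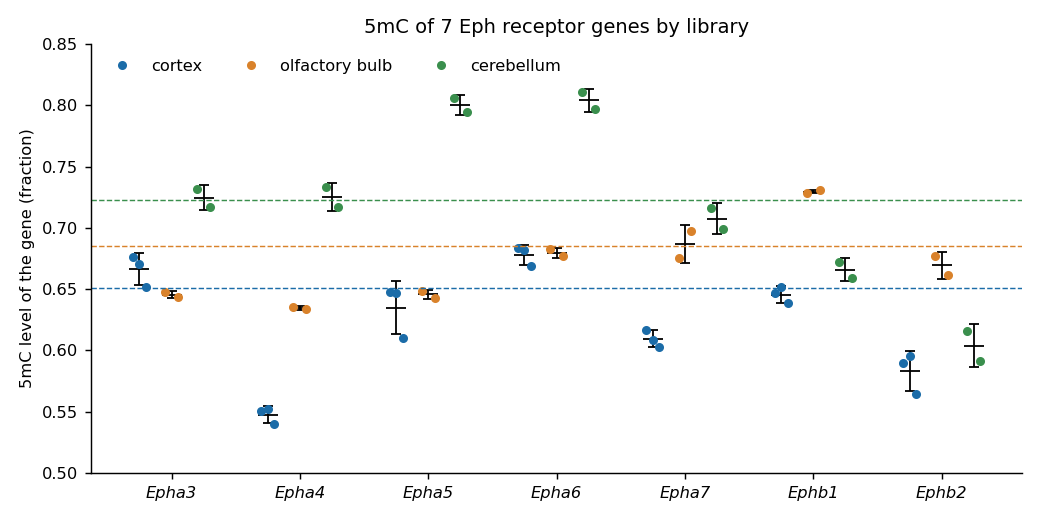
5mC level of each Eph receptor gene (fraction, y axis from 0.5 to 0.85) in every oxBS-seq library, with the mean and SD of each tissue in black and dashed lines at the median of 2488 genes of at least 100 kb in the tissue of that colour. Cerebellum stands highest in the 5 EphA genes, most of all in Epha5 (0.800) and Epha6 (0.804), and olfactory bulb stands highest in Ephb1 (0.730) and Ephb2 (0.669).

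Ephb1 and Ephb2 had another order, with the highest level in olfactory bulb. Ephb1, known for steering retinal axons away from the midline, had 0.646, 0.652 and 0.638 in cortex, 0.729 and 0.730 in olfactory bulb, and 0.672 and 0.659 in cerebellum. The olfactory bulb libraries lay above all others, by 0.57 ± 0.11 against cortex (limma adjusted p = 0.00020), and cerebellum lay below olfactory bulb by 0.44 ± 0.12 (a change of -0.44, limma adjusted p = 0.0054). Cerebellum and cortex differed by 0.13 ± 0.11 (limma adjusted p = 0.322).

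Ephb2, which clusters NMDA receptors at synapses, had 0.590, 0.595 and 0.564 in cortex, 0.677 and 0.661 in olfactory bulb, and 0.616 and 0.592 in cerebellum. Cortex and cerebellum overlapped, and both lay below olfactory bulb. The change from cortex to olfactory bulb was 0.53 ± 0.11 (limma adjusted p = 0.00055), and that from olfactory bulb to cerebellum was -0.41 ± 0.12 (limma adjusted p = 0.011). Both drops from olfactory bulb to cerebellum lost their call when any one of 3 libraries was left out. Without olfactory bulb replicate 1, olfactory bulb replicate 2 or cerebellum replicate 2, the limma adjusted p was 0.055, 0.077 and 0.071 in Ephb1 and 0.142, 0.054 and 0.140 in Ephb2. The drop of Ephb2 also lost its call with each gene's own variance (limma adjusted p = 0.089).

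Counted over the family, 5 of 7 genes were higher in cerebellum than in cortex and 0 lower (limma, also 0 at an unadjusted p under 0.05), where 55.1% of all genes tested and 74.7% of those of at least 100 kb were higher and 4.26% and 3.14% lower. The share in the family is thus near that of other long genes. From olfactory bulb to cerebellum, 4 were higher (18.0% of all genes, 38.4% of long ones) and 2 lower (7.69%, 6.11%). From cortex to olfactory bulb, 4 were higher (26.4%, 30.9%) and 0 lower (limma, also 0 at an unadjusted p under 0.05; 0.866%, 2.77%). The 3 comparisons share their libraries and are not independent of each other. Levels centred on the library median kept Epha4, Epha5, Epha6 and Epha7 higher in cerebellum than in cortex, by 0.78, 0.86, 0.62 and 0.29 (15.3% of all genes higher), and turned Ephb1 and Ephb2 to lower, by -0.21 and -0.22 (26.5% lower). From cortex to olfactory bulb, Epha4, Ephb1 and Ephb2 were higher after centring, 3 of 7 genes (3.56% of all genes) and Epha3 was lower (4.73%). From olfactory bulb to cerebellum, centring kept the same 4 genes higher (13.7% of all genes) and the same 2 lower (21.9%). Over all genes the centring changed the split of calls in cerebellum against cortex from 11960 higher and 926 lower to 3330 higher and 5748 lower.

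The changes from cortex to olfactory bulb rest on the spread that limma pools over all genes. With each gene's own variance, 0 of the 7 genes passed (limma adjusted p between 0.052 and 0.078 for the 4 genes called), and 3 of all 21718 genes did. Leaving out olfactory bulb replicate 1 removed the call of Ephb2 (limma adjusted p = 0.052), and leaving out replicate 2 removed that of Epha7 (0.067). For a single gene the smallest p of the exact two-sided permutation test was 0.1 for 2 libraries against 3, and it was larger for 2 against 2.

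Along the genes, the position of the lowest bin was compared with that of the start site. The 100 kb bin with the start site was the lowest of its gene in 5 of 7 genes in cortex, 4 in olfactory bulb and 5 in the cerebellum. The share among other genes was not determined, and Epha4 and Ephb2 span only 3 bins each, so these counts show no trait of the family. Some of these bins are mostly upstream sequence, with 5.53 kb of Epha6, 15.1 kb of Epha4 and 17.4 kb of Epha5 in them. In Epha7, which spans just 2 bins, it had 0.541 ± 0.0068 in cortex, 0.636 ± 0.022 in olfactory bulb and 0.648 ± 0.013 in the cerebellum, against 0.678, 0.737 and 0.767 in the other bin. The start-site bin of Epha3 had 0.586 ± 0.042, 0.588 ± 0.0030 and 0.658 ± 0.00092 in the same order of tissues, and its highest bin, at the 3′ end, had 0.715, 0.715 and 0.773.

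In Epha4 the lowest bin of cortex was not the one with the start site (0.493 ± 0.029) but the next one, chr1:77400001-77500000, which lies wholly inside the gene. It had 0.485 ± 0.018 in cortex, 0.620 ± 0.0056 in olfactory bulb and 0.730 ± 0.011 in the cerebellum, a change from cortex to cerebellum of 1.52 on the log2 ratio scale. The highest bin of Epha4, at its 3′ end, had 0.664, 0.706 and 0.782.

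Inside Epha5, cerebellum stood far above both other tissues. Its bin chr5:84300001-84400000, next to the start site, had 0.611 ± 0.032 in cortex, 0.604 ± 0.00058 in olfactory bulb and 0.835 ± 0.0014 in the cerebellum, so that the lowest bin of Epha5 in olfactory bulb was its highest in cerebellum. The bin with the start site had 0.598 ± 0.016, 0.632 ± 0.010 and 0.732 ± 0.023, and the bin at the 3′ end 0.697, 0.697 and 0.807. In Epha6 all 11 bins were called higher in cerebellum than in either other tissue, with 0.627, 0.657 and 0.752 in the start-site bin, 0.612, 0.632 and 0.712 in the lowest bin, which it shares with Crybg3 and Arl6, and 0.724, 0.749 and 0.841 in the highest bin.

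**Figure D2:**
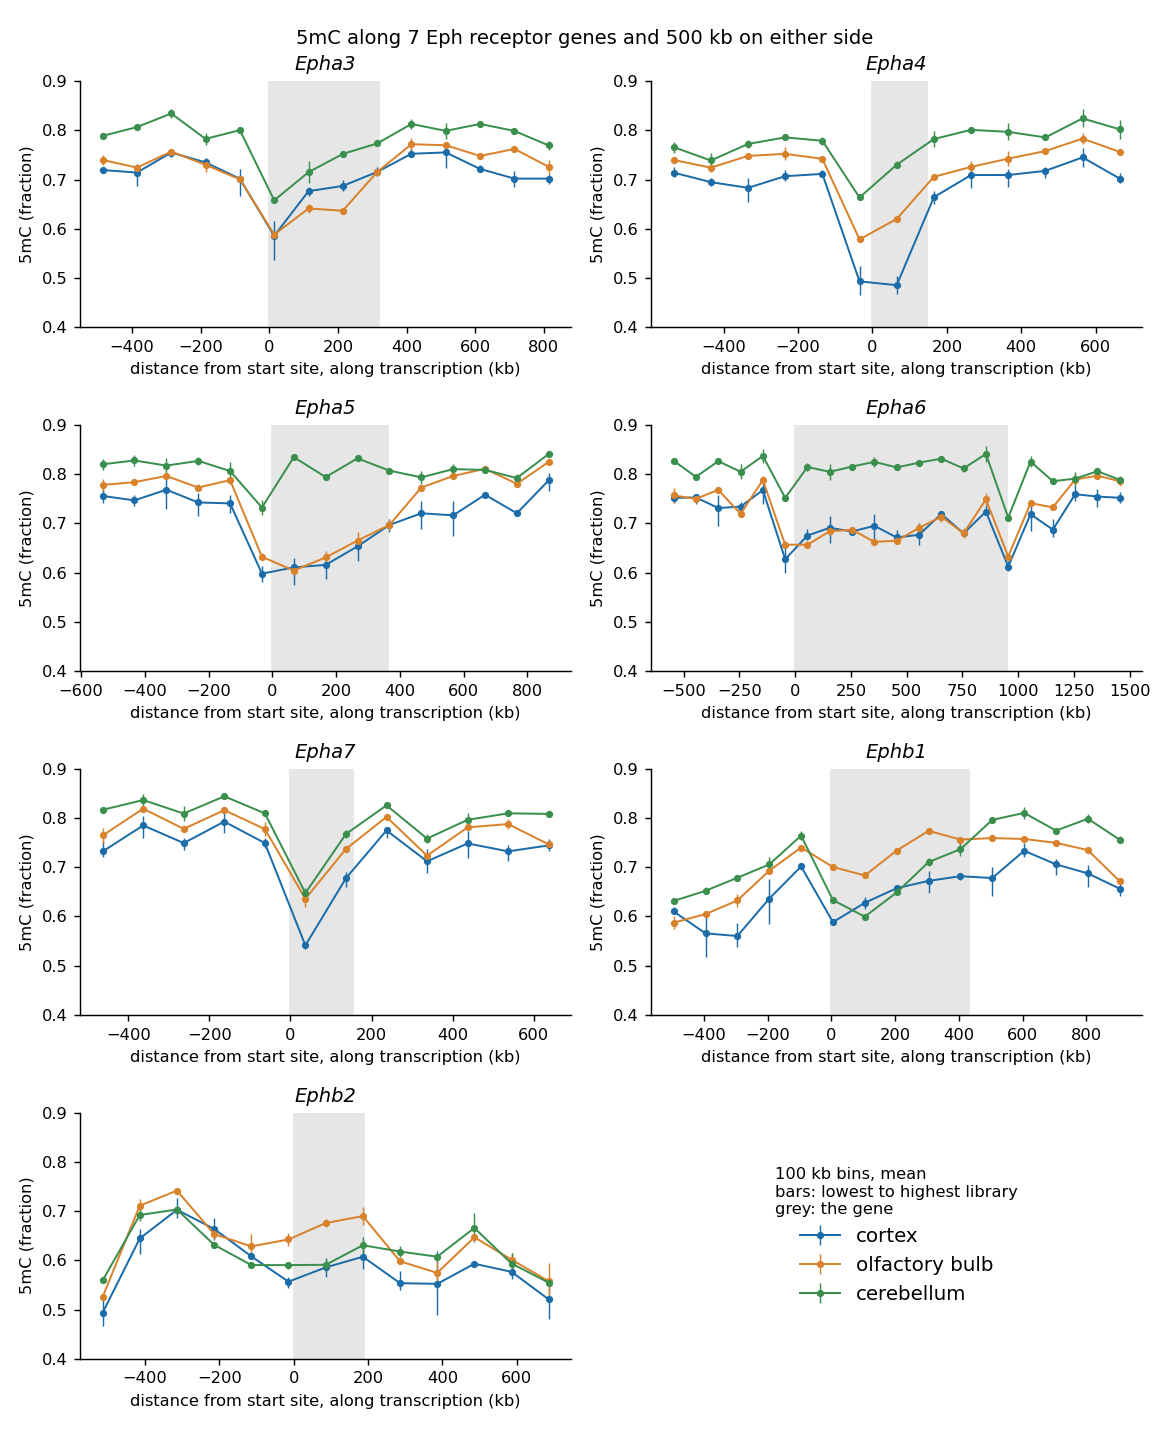
Mean 5mC of 100 kb bins (fraction, y axis from 0.4 to 0.9) against the distance of the bin's centre from the start site in kb, positive in the direction of transcription, for each gene and 500 kb on either side. Bars run from the lowest to the highest library and grey marks the gene. The level drops at the start site and stays low inside Epha5 and Epha6 in cortex and olfactory bulb but not in cerebellum, and olfactory bulb runs above the other tissues inside Ephb1 and Ephb2.

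In Ephb1, cerebellum lay below olfactory bulb in all 5 bins, 4 of them called, and was called above cortex in 3. Its 3′ bin had 0.682 ± 0.0078 in cortex, 0.756 ± 0.0047 in olfactory bulb and 0.737 ± 0.021 in the cerebellum, whereas chr9:102200001-102300000, the bin next to the start site, had 0.628 ± 0.013, 0.683 ± 0.0032 and 0.600 ± 0.0030. Cerebellum was above cortex at the 3′ end (log2 ratio change 0.39, called) and differed by -0.17 in that bin (not called). The start-site bin, again called higher than in cortex (0.27), had 0.588 ± 0.0048, 0.700 ± 0.00071 and 0.633 ± 0.0084, the lowest of the gene in cortex, and the highest bin of olfactory bulb, chr9:102000001-102100000, had 0.774. In Ephb2 the start-site bin was the lowest in all 3 tissues, with 0.557 ± 0.012, 0.642 ± 0.019 and 0.590 ± 0.010, and the 3′ bin the highest, with 0.607, 0.690 and 0.631.

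Of the 33 bins over the 7 genes, 28 were higher in cerebellum than in cortex (71.9% of all 100 kb bins were) and 0 lower (limma, also 0 at an unadjusted p under 0.05, 4.44% of all bins), 23 were higher in cerebellum than in olfactory bulb (35.3%) and 7 lower (7.69%), and 13 were higher in olfactory bulb than in cortex (37.6%) and 1 lower (2.18%). All 7 bins that were lower in cerebellum than in olfactory bulb belonged to Ephb1 (4 of 5 bins) and Ephb2 (3 of 3). In the 70 bins of the flanks, 64, 29 and 27 were higher in these comparisons and 0 lower (limma, with 0, 1 and 0 lower at an unadjusted p under 0.05).

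To set each gene against its surroundings, the mean 5mC of the flanks was subtracted from that of the gene within each library. Epha3, Epha4, Epha5, Epha6 and Epha7 lay below their flanks, and Ephb1 and Ephb2 lay above them in olfactory bulb. From flank to flank, 0 other protein-coding genes lay around Epha3, Epha4, Epha5 and Epha7, 6 around Ephb1, 17 around Epha6 and 19 around Ephb2. CpG sites per kb were fewer in the flanks than in the gene bins of Epha4 (6.93 against 9.48) and Epha7 (5.20 against 8.04). The gap was smaller for Epha3, Epha5, Ephb1 and Ephb2, and Epha6 had more in its flanks (6.69 against 5.75). Whether this bears on the differences was not tested. In cortex Epha4 was lower than its flanks by 0.168, 0.163 and 0.154 in the 3 libraries, a mean difference of -0.162 ± 0.0070, and Epha7 had -0.142 ± 0.0076, Epha5 -0.111 ± 0.0052, Epha6 -0.063 ± 0.0058 and Epha3 -0.060 ± 0.0036. These 5 of 7 genes passed limma's test against 0 in cortex, where 47.4% of all genes lay below their flanks, while Ephb1 had -0.0080 ± 0.015 and Ephb2 -0.0077 ± 0.0077. Only 1.21% of long genes lay further below their flanks in cortex than Epha4, and 2.25% further than Epha7.

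In olfactory bulb the same 5 EphA genes lay below their flanks (42.7% of all genes), from -0.083 ± 0.0089 in Epha6 to -0.145 ± 0.0085 in Epha5. Ephb1 lay above its flanks by 0.0348 and 0.0383 in the 2 libraries and Ephb2 by 0.0421 and 0.0489, and both passed the test (27.7% of all genes were above). In cerebellum 4 of 7 genes lay below their flanks (42.3%), namely Epha7 with -0.104 ± 0.0020, Epha3 with -0.076, Ephb1 with -0.071 ± 0.0031 and Epha4 with -0.060 ± 0.0032. The differences of Epha5 (-0.014 ± 0.0072), Epha6 (-0.0046 ± 0.00029) and Ephb2 (-0.018 ± 0.0039) did not pass there (limma adjusted p = 0.125, 0.608 and 0.065). Ephb2 passed with its own variance (0.030), with long genes only (0.015) and with flanks of 1 Mb (0.011), and Epha5 with long genes only (0.042) and on log2 ratios (0.045). For Epha5 and Epha6 the sign in cerebellum became positive when only bins at least 50% covered by the gene were used, at 0.0059 and 0.0114.

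**Figure D3:**
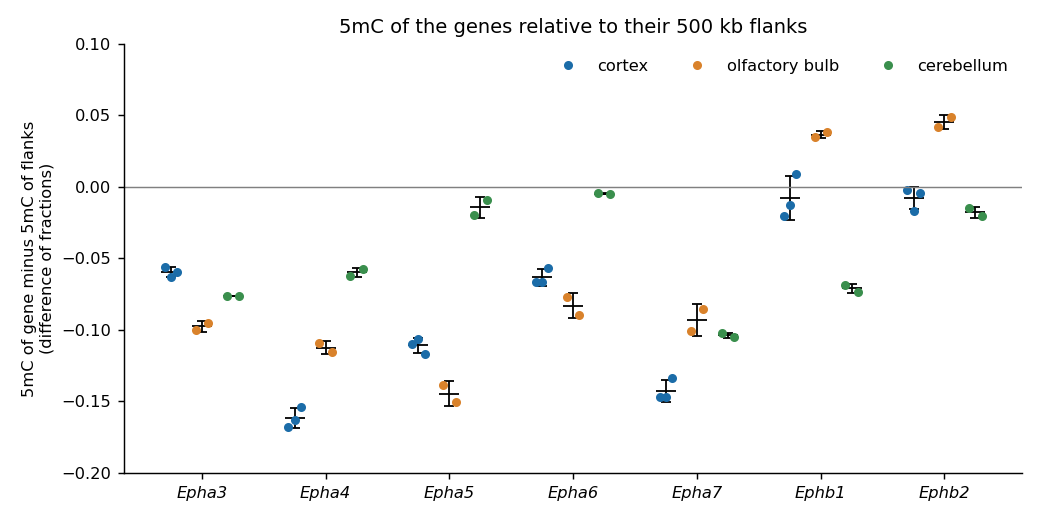
Mean 5mC of the gene minus that of its 500 kb flanks (difference of fractions) in every oxBS-seq library, with the mean and SD of each tissue in black and a line at 0. Epha4, Epha5 and Epha6 come closest to their flanks in cerebellum, whereas Ephb1 lies 0.037 above its flanks in olfactory bulb and 0.071 below them in cerebellum.

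Between tissues, the difference from the flanks itself changed in cerebellum against cortex in 5 of 7 genes. It was higher in 4 (11.7% of all genes, 24.7% of long genes), with Epha4 by 0.102 ± 0.010 (SE), Epha5 by 0.096 ± 0.010, Epha6 by 0.059 ± 0.010 and Epha7 by 0.039 ± 0.010, and lower in Ephb1, by -0.063 ± 0.011 (11.3% lower, 15.5% of long genes), at limma adjusted p between 0.00023 and 0.026. Without cerebellum replicate 2, Epha7 and Ephb1 missed the threshold (limma adjusted p = 0.132 and 0.054), and Epha7 also did without cerebellum replicate 1 (0.148), cortex replicate 1 (0.074) or cortex replicate 2 (0.056), with the library names' replicate numbers as a block (0.072) and on differences of log2 ratios (0.224).

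Against olfactory bulb, cerebellum was higher in Epha5 by 0.130 ± 0.011, in Epha6 by 0.078 ± 0.011 and in Epha4 by 0.053 ± 0.011 (9.95% of all genes, 21.1% of long genes), and lower in Ephb1 by -0.108 ± 0.012 and in Ephb2 by -0.063 ± 0.011 (10.9%, 14.5%), at limma adjusted p between 0.000086 and 0.0087. Epha4 missed the threshold without either cerebellum replicate 1 or replicate 2 (limma adjusted p = 0.054 and 0.072). Ephb1 and Ephb2 passed here under each of these omissions, unlike their levels above.

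From cortex to olfactory bulb, 3 genes were higher (Epha4 by 0.049, Epha7 by 0.049 and Ephb2 by 0.053, 3.27% of all genes and 7.72% of long genes) and Epha3 was lower by -0.038 (2.57%, 7.56%), at limma adjusted p between 0.016 and 0.047. These calls were fragile: the count of 4 fell to 0 without either olfactory bulb replicate, to 1 without cortex replicate 1, and to 2 without cortex replicate 2 or either cerebellum replicate. Without cortex replicate 3, Epha3 was lost (limma adjusted p = 0.071) and Ephb1 gained (0.027, from 0.053 in all libraries). Ephb1 was also called higher under 6 other alternatives, at limma adjusted p between 0.0019 and 0.047, and Epha5 (-0.034, limma adjusted p = 0.081) was called lower under 3, at 0.020 with bins at least 50% covered, 0.0040 with long genes only and 0.036 on log2 ratios. Epha3 was lost with the trend and robust options (0.074), and with the replicate numbers of the labels (0.104) or of the library names (0.118) as a block.

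Around the Eph receptor genes, 5hmC was read only in bins of 1 Mb, of which a gene covered between 7.79% (the first bin of Ephb1) and 60.6% (the second bin of Epha6). The bins of Epha3, Epha4, Epha5 and Epha7 and the second bin of Epha6 held no other protein-coding gene, while the others held between 4 and 22 of them. All 9 bins had less 5hmC in cerebellum than in cortex, as did 97.6% of all 1 Mb bins (0.426% had more), so the share among the Eph receptor bins is near the background. After centring on the library median, 4 of the 9 bins were lower in cerebellum (Epha4, Epha5 and both bins of Epha6; 40.1% of all bins) and 5 were higher (Epha3, Epha7, both bins of Ephb1 and Ephb2; 50.3%).

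Epha5 and Epha6 had the lowest 5hmC of the family in cerebellum. The bin of Epha5 had 0.175, 0.180 and 0.166 in cortex, 0.177, 0.188 and 0.186 in olfactory bulb, and 0.0578, 0.0568 and 0.0600 in cerebellum. The second bin of Epha6 had 0.148, 0.160 and 0.145 in cortex, 0.170, 0.180 and 0.182 in olfactory bulb, and 0.0472, 0.0497 and 0.0534 in cerebellum. In both bins the cerebellum libraries lay far below all others. The change from olfactory bulb to cerebellum was -1.87 ± 0.07 on the log2 ratio scale in Epha5 and -2.03 ± 0.07 in Epha6, lower than in all but 0.852% and 0.232% of the 1 Mb bins, where the median change was -0.72. The low level in cerebellum was not confined to the genes. Adjoining bins without them had 0.0514 (chr5:83000001-84000000, beside Epha5) and 0.0445 (chr16:61000001-62000000, beside Epha6). Their change from olfactory bulb was smaller, at -1.19 and -1.29.

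The second bin of Epha6 was also the only one of the 9 called higher in olfactory bulb than in cortex (change 0.28, limma adjusted p = 0.00031, where 3.25% of all bins were higher), and its first bin was lower by -0.19, a call that was lost without olfactory bulb replicate 3 (limma adjusted p = 0.076). The bin of Epha7 (-0.34), the second bin of Ephb1 (-0.39) and the bin of Ephb2 (-0.22) were lower too, which made 4 lower bins (67.7% of all bins). Without cortex replicate 2, the bins of Epha3 and Epha5 were called higher as well (limma adjusted p = 0.013 and 0.039), and without cortex replicate 3 the first bin of Ephb1 was called lower (0.013). That bin, at -0.15 with a limma adjusted p of 0.064 in all libraries, was also called lower with the replicate number as a block (0.041), on the fraction scale (0.0068), with limma's trend and robust options (0.025) and with all bins kept (0.042). After centring, the bin of Ephb2 and the first bin of Epha6 were not called, and 5 bins were higher in olfactory bulb (36.2% of all bins), those of Epha3, Epha4 and Epha5, the first of Ephb1 and the second of Epha6, and 2 were lower (33.0%).

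**Figure D4:**
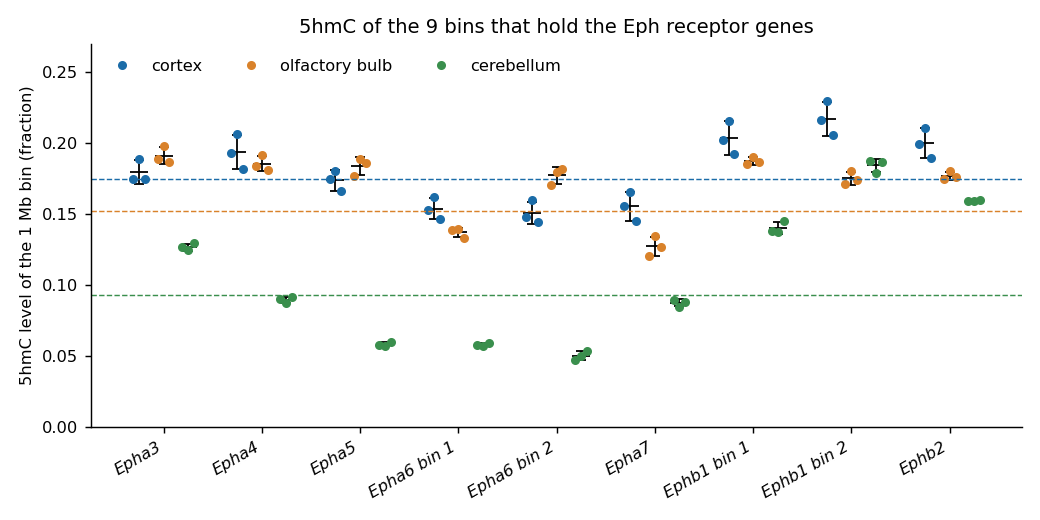
5hmC level (fraction, y axis from 0) of the 9 bins of 1 Mb that overlap the genes in every TAB-seq library, with the mean and SD of each tissue in black and dashed lines at the median of all 2581 bins; Epha6 and Ephb1 span 2 bins each, numbered in chromosome order. Cerebellum lies below its genome median in Epha5 and Epha6, at 0.050 to 0.058, and far above it in the second bin of Ephb1, at 0.184.

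The bins of Ephb1 and Ephb2 held the most 5hmC of the 9 bins in cerebellum. The high level was not confined to the bin of Ephb2 (0.159). The adjoining bin chr4:137000001-138000000, which does not overlap the gene, had 0.168 in cerebellum. The second bin of Ephb1 had 0.216, 0.230 and 0.206 in cortex, 0.171, 0.180 and 0.174 in olfactory bulb, and 0.187, 0.179 and 0.187 in cerebellum, where 97.3% of all bins were lower. It was the 1 bin of the 9 with no call between cerebellum and olfactory bulb (change 0.09). The other 8 of 9 bins were lower in cerebellum than in olfactory bulb (91.8% of all bins were, and 1.20% were higher). After centring, 5 of the 9 bins were higher in cerebellum than in olfactory bulb (50.9%) and 4 lower (39.1%). Ephb2 had 0.1999 ± 0.011 in cortex, 0.177 ± 0.0029 in olfactory bulb and 0.159 ± 0.00067 in the cerebellum, and Epha3 had 0.180 ± 0.0082, 0.191 ± 0.0058 and 0.127 ± 0.0025. Epha4 (0.194, 0.185 and 0.0894) and Epha7 (0.155, 0.127 and 0.0873) lay near the genome median of cerebellum, 0.0931.

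Both modifications were added over the same 1 Mb bins. From cortex to cerebellum the sum changed less than 5hmC alone in all 7 genes, and from olfactory bulb to cerebellum in 6 of 7. From cortex to olfactory bulb it changed more than 5hmC in 5 of 7. The share over all 1 Mb bins was not determined, so these counts cannot be read as particular to the family. Epha5 had 0.867 ± 0.021 in cortex, 0.899 ± 0.0063 in olfactory bulb and 0.868 ± 0.013 in the cerebellum, while the share of 5hmC in the sum was 20.05%, 20.5% and 6.70%. In Epha6 the sums were 0.858 ± 0.013, 0.876 ± 0.0025 and 0.859 ± 0.011, with 17.8%, 17.9% and 6.30% as 5hmC. Ephb1 kept 24.4%, 20.5% and 18.5% as 5hmC in sums of 0.861, 0.882 and 0.880, and Ephb2 25.8%, 22.1% and 20.8% in sums of 0.775, 0.799 and 0.767. The assays used separate libraries, so the sum was not measured in any one library and was not tested.

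**Figure D5:**
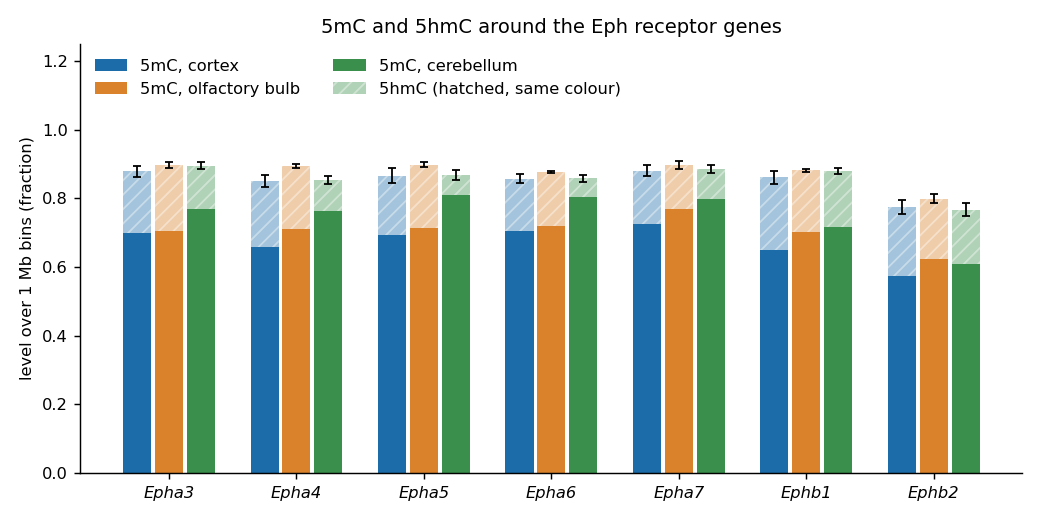
Mean 5mC (solid) and 5hmC (hatched) stacked over the 1 Mb bins of each gene in the 3 tissues (fraction, y axis from 0), with the SD of the sum. The tops are near each other within a gene, and the hatched part is smallest in cerebellum in Epha5 and Epha6, where it is 0.058 and 0.054.

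The other Eph receptor genes are short, from 14.8 to 36.9 kb. Of Epha1, Epha2, Epha8, Epha10, Ephb3, Ephb4 and Ephb6, only Epha8, which lies in the flank of Ephb2, changed relative to its flanks, by -0.050 in cerebellum against cortex, and 0 of 7 passed in the other comparisons (limma, where an unadjusted p under 0.05 was reached by 2 for cerebellum against olfactory bulb and by 0 for olfactory bulb against cortex). A gene so much shorter than a bin is read together with its neighbours. By level, the order of Ephb1 and Ephb2 did not hold for all EphB genes. In cortex, olfactory bulb and cerebellum Ephb3 had 0.568, 0.622 and 0.645 and Ephb6 0.630, 0.692 and 0.737. Both were called higher in cerebellum than in cortex (limma adjusted p = 0.00045 and 1.4e-06) but not than in olfactory bulb. Epha2, Epha8, Epha10 and Ephb4 were highest in olfactory bulb, without a call against either other tissue. Of 8 ephrin genes, 2 were higher relative to their flanks in cerebellum than in cortex (11.7% of all genes) and 0 lower (limma, 1 lower at an unadjusted p under 0.05, 11.3% of all genes). Efna3 and Efna4 lie in the same bin and share its values. Efnb2, the ephrin-B ligand of vessels and axons, lay at -0.292 relative to its flanks in cortex, at -0.218 in olfactory bulb and at -0.160 in cerebellum, and all 3 differences between tissues passed. Efnb3, the midline ephrin, was higher in cerebellum by 0.043 against cortex and by 0.049 against olfactory bulb. Efna5, the one long ephrin gene and a ligand of EphA receptors, had -0.062, -0.062 and -0.040, with no difference between tissues past the threshold.

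Among 18 genes that act with or below Eph receptors, 14 of them at least 100 kb long, 7 were higher relative to their flanks in cerebellum than in cortex (11.7% of all genes, 24.7% of long genes) and 5 lower (11.3%, 15.5%). Against olfactory bulb, 8 were higher (9.95%, 21.1%) and 2 lower (10.9%, 14.5%), and from cortex to olfactory bulb 1 was higher (3.27%, 7.72%) and 4 were lower (2.57%, 7.56%). The exchange factor Kalrn, which acts in dendritic spines, had -0.072, -0.090 and 0.044 relative to its flanks in cortex, olfactory bulb and cerebellum. Higher in cerebellum than in cortex were also Chn1 (0.086), a chimaerin downstream of Epha4, Ngef (0.062), an exchange factor that binds Epha4, the kinases Src (0.070) and Abl1 (0.069), Rasa1 (0.053) and the scaffold Grip1 (0.043). Lower were Adam10 (-0.110), a protease that cleaves ephrins, the exchange factors Tiam1 (-0.106) and Itsn1 (-0.055), the adaptor Nck1 (-0.076) and the kinase Fyn (-0.037).

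In olfactory bulb the lower genes against cortex were Sipa1l1 (-0.119), a partner of Epha4 in spines, Fyn (-0.111), Tiam1 (-0.084) and Grip1 (-0.066), and Chn1 was the higher one (0.054). Against olfactory bulb, cerebellum was higher in Sipa1l1 (0.140), Kalrn (0.134), Grip1 (0.109), Rasa1 (0.083), Fyn (0.073), Src (0.053), Abl1 (0.052) and Ngef (0.051) and lower in Adam10 (-0.108) and Nck1 (-0.047). The long genes with no call in any comparison were Vav2, Vav3, Nck2, Rgs3 and Grb10, with differences between -0.027 and 0.035.

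Measured by the Euclidean distance of the 5mC level over the 7 libraries, the long gene nearest to each member, and over 1 Mb away, was Lyst for Epha3 (distance 0.0248), Klhl2 for Epha4 (0.0206), Tusc3 for Epha5 (0.0330), Chsy3 for Epha6 (0.0180), Hecw2 for Epha7 (0.0231), Kif13a for Ephb1 (0.0207) and Sgk1 for Ephb2 (0.0362). Each was the closest of between 2478 and 2481 candidate genes. Only 3 candidates lay within 2 times the distance of the nearest one for Epha4 and for Ephb1, whereas 44 did for Epha3.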

How the data were processed

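The levels analysed came from 7 oxBS-seq and 9 TAB-seq libraries, grouped by the tissue in the labels. The 6 RNA-seq samples were not analysed here. The authors mapped reads uniquely to mm10 with Bismark (version not given in the sources used here) and deposited, per library, the level of each bin as a fraction from 0 to 1, in 26327 bins of 100 kb for 5mC and 2641 bins of 1 Mb for 5hmC. How sites were combined in a bin is not stated in the sources used here, and without coverage the precision was judged from the SD between libraries alone.

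Bins listed at 0 or 1 in any library were left out, which kept 25664 and 2581 bins and all bins of the 7 genes. Gene levels were unweighted means over overlapping bins for 21718 protein-coding genes (GENCODE vM21), and flanks were the bins within 500 kb that do not overlap the gene, with at least 5 required (21711 genes). limma 3.58.1 in R 4.3.3 was fitted once per table over the 3 tissues, on log2(level/(1 − level)) for genes and bins and on the fraction for gene minus flanks, with Benjamini-Hochberg adjustment over the whole table. The fit was also run on simulated levels. These had independent noise of equal spread and no shift of whole libraries, so that run says nothing about such shifts. For 5hmC, limma gave all bins the same standard error. Same-numbered 5hmC libraries of cortex and olfactory bulb deviated together from their tissue means, with a correlation over bins of 0.126, 0.344 and 0.250 in the 3 pairs, whereas the 6 pairs with cerebellum gave -0.229 to 0.0743. The pairing thus comes from the data and holds for cortex against olfactory bulb only, and the block was fitted over all 3 tissues. Single genes were also compared by exact permutation tests. CpG sites were counted in the GRCm38.p6 sequence. Python 3.11.15 with numpy 2.4.6, pandas 2.3.3 and matplotlib 3.10.9 was used elsewhere.

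The genes named are the 7 members, the pathway genes at least 100 kb long or past the threshold relative to their flanks, and for each member the nearest long gene. The members and the gene lists were chosen with earlier results of these data known. Alternatives were the fraction scale, centring on library medians, limma's trend and robust options, each feature's own variance, all bins kept with levels limited away from 0 and 1, bins at least 50% covered, bins weighted by length covered, flanks of 1 Mb, differences of log2 ratios, long genes only, leaving out each library, and a block for the replicate number. The result of 1 cortex marker gene is not reported here.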

Additional observations from a re-analysis of the deposited data

How the results depend on the processing

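Of the counts and sums reported, 300 values under alternatives stayed within 1.5 times the main count or within the spread, and 10 did not. All 10 were counts. Each count takes calls in either direction together, so it cannot show a change of sign. For 5hmC in cerebellum against cortex, all 9 bins stayed called after centring, but 5 of them turned from lower to higher. The sums were varied only by leaving out 1 library. With 2 or 3 libraries this cannot move a mean beyond their SD, so the sums say nothing about stability here. With each gene's own variance, 0 of the 7 genes were called between olfactory bulb and cortex for 5mC per gene (4 with the pooled variance), and 1 for gene minus flanks (4). Leaving out 1 library gave between 0 and 4 calls for gene minus flanks in olfactory bulb against cortex, between 3 and 5 in cerebellum against cortex, and 4 to 7 for 5hmC in olfactory bulb against cortex.

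Centring turned the sign for 5mC of Ephb2 (-0.22) and Ephb1 (-0.21) in cerebellum against cortex and of Epha5 (-0.14) and Epha6 (-0.20) in olfactory bulb against cortex. For 5hmC it gave, in cerebellum against cortex, 0.10 for Epha7, 0.65 for Ephb2, 0.40 and 0.75 for the bins of Ephb1 and 0.45 for Epha3. Against olfactory bulb it gave 0.20 for Epha7, 0.62 for Ephb2, 0.30 for the first bin of Ephb1 and 0.098 for Epha3, and from cortex to olfactory bulb 0.16 for Epha4, 0.025 for Ephb2, 0.094 for the first bin of Ephb1 and 0.047 for the first bin of Epha6. These centred values are relative to the median bin or gene of a library, which moved between tissues. Over all genes, the calls for olfactory bulb against cortex numbered 5929, with 1802 after centring and 3 with each gene's own variance; for cerebellum against cortex they numbered 12886, 9078 and 7543. For gene minus flanks the counts were 1268 and 4984, and 273 and 2634 with each gene's own variance.

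Using only bins at least 50% covered gave -0.021 for Epha6 in olfactory bulb against cortex, and for gene minus flanks 0.0059 for Epha5 and 0.0114 for Epha6 in cerebellum and 0.0056 for Ephb2 in cortex. Weighting by length gave -0.012 for that change of Epha6, and 0.000016 for Epha5 and 0.0057 for Epha6 in cerebellum. Without single libraries the change from cortex to olfactory bulb ranged from -0.010 to 0.107 in Epha5 and from -0.017 to 0.031 in Epha6. None of these values passed the threshold.

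For 5mC the replicate numbers share only a number: deviations of same-numbered libraries correlated at -0.0185 on average by the labels (6 pairs), and the library names carry other numbers than the labels do for some libraries. For 5hmC, where cortex and olfactory bulb deviate together, the replicate block changed no call other than that of the first bin of Ephb1. With the labels' numbers as a replicate block, 5mC of Epha5 and Epha6 changed by -0.010 and -0.017 from cortex to olfactory bulb, and calls over all genes fell from 5929 to 4133. With the library names' numbers, 0 of the 7 genes were called for gene minus flanks in olfactory bulb against cortex. Depth limits what can be said of single bins, since no coverage was available to weigh them. The causes of these shifts were not tested.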
